A study of Mus musculus with 18 samples.

Results

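The heat shock and chaperone genes of mouse liver were taken by symbol: the HSP70 (Hspa), HSP90, HSP110, HSP60, HSP10 and small heat shock protein (Hspb) genes, the J-protein genes (Dnaja, Dnajb, Dnajc), the subunits of the TRiC chaperonin (Cct), the BAG co-chaperones (Bag) and the heat shock factors (Hsf). Of the 50600 genes in the 1-day table, 102 had such a symbol after 7 chaperones of the endoplasmic reticulum (ER) were set aside, and 77 of these were among the 14266 genes with enough counts to test. The 12-hour table held 82 members among its 17127 genes, and 69 of them were among the 12548 tested. The 25 members tested at neither time, 13 of the 14 pseudogenes among them, did not exceed 2.95 CPM (counts scaled to a common library size) in any liver. Although most members act in the cytosol, the symbols also brought in the mitochondrial chaperones Hspa9, Hspd1, Hspe1 and Dnaja3 and a few J-proteins of the ER membrane such as Dnajb12, Dnajb14 and Dnajc1.

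RNA sequencing was performed on livers from 18 male mice, with 3 livers in each of 6 groups, to ask how the liver responds to a myocardial infarction (MI, by tying off the left anterior descending artery of the heart for good) and what part the hepatocyte mineralocorticoid receptor (MR, encoded by Nr3c2) plays in it. At 1 day LC and HMRKO mice were each compared after MI or sham surgery, where LC are MR flox/flox littermate controls, labelled wild type, and HMRKO are MR flox/flox mice with Cre driven by the albumin promoter, which acts in hepatocytes and leaves MR intact in other liver cells. At 12 h the groups were C57 + sham and C57 + MI, in wild-type mice with no transgene. All mice were C57BL/6 at 12 weeks of age, and since the labels of the 1-day MI livers named no operation and no label gave a time, both were read from the series design.

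Chaperones of these families bind unfolded stretches of other proteins and help them fold, refold or pass to degradation, some of them with the use of ATP. HSP70 proteins work in a cycle with J-proteins, which start ATP hydrolysis, and with nucleotide exchange factors such as the BAG and HSP110 proteins, which release the client, while HSP90 finishes the folding of kinases and steroid receptors and TRiC folds actin and tubulin. Many of the genes are switched on by heat shock factor 1 (HSF1), which binds alternating GAA and TTC units, the heat shock element.

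Total counts ran from 19098704 to 28945526 per liver at 1 day and from 16745645 to 19190405 in C57 + MI, but only from 1361506 to 2255782 in C57 + sham, so that depth and operation cannot be told apart at 12 h. Mitochondrially encoded transcripts made up 18.9% of the counts in LC + MI replicate 1 and 7.53% to 15.6% in the other 1-day livers. Nr3c2 stood at 5.599, 6.70 and 4.71 CPM in LC + sham and at 2.93, 3.76 and 2.54 CPM in HMRKO + sham. The knockout livers were the lower, without overlap, but the difference did not pass the test across all genes (log2 fold change −0.88 ± 0.25 standard error, SE, adjusted p = 0.471), whereas it did after MI (−1.36 ± 0.29, adjusted p = 0.00505). Throughout, CPM are counts scaled by library size and TMM factors, a log2 fold change is the first group minus the second with its SE, and a member passed the test when its edgeR quasi-likelihood p, adjusted over all genes tested, was below 0.05. Because whole liver was sequenced, fewer cells of a type and less RNA per cell cannot be told apart.

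Promoter windows from RefSeq (GRCm38.p6, from 250 bases before a gene start to 50 bases after it) were at hand for 71 of the 102 members. Hspa8, Hspa9, Hsp90aa1, Hsp90ab1, Hsf1 and Hsf4 were among those without a window, so the element was not looked for in them. The 3-unit heat shock element, GAANNTTCNNGAA or TTCNNGAANNTTC on either strand, was written in the windows of 4 of the 71 (5.63%), namely Hsph1, Hspd1, Hspe1 and Dnajb6, and in 0.662% of 27025 genes with a window. The windows of Hspd1 and Hspe1 lie on opposite strands, share bases and hold 2 matches each. The same matches can thus be counted for both genes, and the 4 members need not be 4 separate sites. The shorter 2-unit form, GAANNTTC or TTCNNGAA, which every 3-unit match also holds, was in 21 of the 71 members (29.6%) and in 17.0% of all genes. Windows are shown for the pair of HSP70 genes that were lower in LC + MI, because they are near copies of each other, and for Hsph1 and Hspe1 (HSP10), which moved in opposite directions at 12 h although both hold the 3-unit element. The run shown ends 30 bases into the gene, capitals mark the longest form of the element found, and all are written 5′ to 3′ on the strand of the gene.
Hspa1a (chr17:34972127-34972406, minus strand): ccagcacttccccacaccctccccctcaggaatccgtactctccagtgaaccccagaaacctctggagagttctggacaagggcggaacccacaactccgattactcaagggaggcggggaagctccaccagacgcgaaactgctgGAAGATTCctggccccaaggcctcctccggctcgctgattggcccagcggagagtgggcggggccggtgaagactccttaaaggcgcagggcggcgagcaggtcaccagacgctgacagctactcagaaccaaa
Hspa1b (chr17:34959209-34959488, minus strand): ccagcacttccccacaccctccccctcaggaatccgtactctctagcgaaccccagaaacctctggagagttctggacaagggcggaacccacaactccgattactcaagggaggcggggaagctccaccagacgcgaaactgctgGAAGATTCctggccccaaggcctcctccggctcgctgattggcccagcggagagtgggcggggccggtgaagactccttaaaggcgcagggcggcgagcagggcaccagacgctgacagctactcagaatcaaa
Hsph1 (chr5:149636286-149636565, minus strand, the second of its listed starts): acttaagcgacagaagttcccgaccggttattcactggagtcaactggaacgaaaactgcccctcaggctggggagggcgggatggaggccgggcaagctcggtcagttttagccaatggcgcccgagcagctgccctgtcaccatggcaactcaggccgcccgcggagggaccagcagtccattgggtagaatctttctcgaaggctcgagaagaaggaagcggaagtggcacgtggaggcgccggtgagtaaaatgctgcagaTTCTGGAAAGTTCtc
Hspe1 (chr1:55087898-55088177, plus strand): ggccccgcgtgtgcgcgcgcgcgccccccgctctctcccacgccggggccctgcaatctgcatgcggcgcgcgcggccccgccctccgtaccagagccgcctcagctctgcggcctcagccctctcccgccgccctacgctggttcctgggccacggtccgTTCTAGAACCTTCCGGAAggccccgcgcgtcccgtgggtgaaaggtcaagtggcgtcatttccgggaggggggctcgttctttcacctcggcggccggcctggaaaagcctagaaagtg

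The runs of Hspa1a and Hspa1b differed at 4 of 280 bases, and both carried a 2-unit element that began 104 bases before the start. Their longest open reading frames, of 1926 and 1929 bases in GENCODE transcripts, were 99.4% identical with 11 differing columns, whereas Hspa1b and Hspa8 were 74.4% identical. Reads of Hspa1a and Hspa1b could therefore be split between them by the authors' counting, and the values of the pair are uncertain as single genes. In Hsph1 the 3-unit element lay 15 to 27 bases past this start, and in Hspe1 a pair of overlapping matches began 89 bases before it.

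In LC mice at 1 day, the heat-inducible HSP70 genes were lower after MI and no other member passed the test. Of the 77 members tested, 0 were higher (2.68% of all genes were) and 2 were lower (2.33% of all genes), and past 2-fold the numbers were 0 (1.44% of all genes) and 2 (1.04%). The median log2 fold change of the members was −0.01 beside 0.01 for all genes. By edgeR 11 of the 77 members had an unadjusted p under 0.05, 4 of them higher, beside 3129 of 14266 genes, 1576 of them higher. DESeq2 called 0 members higher and 3 lower, beside 647 and 660 of the 14266 genes.
Hspa1b, a stress-inducible HSP70, stood at 14.97, 57.8 and 34.3 CPM in LC + sham and at 3.81, 8.32 and 5.64 CPM in LC + MI. Its groups did not overlap, although the sham livers were widely spread. The fold change was −2.58 ± 0.43, adjusted p = 0.00759, a 5.99-fold lower level, and it passed without any 1 of the 12 livers of the fit (−2.95 to −2.05). Hspa1a, its near copy, stood at 1.79, 6.996 and 6.80 CPM in LC + sham and at 0.952, 1.89 and 0.830 CPM in LC + MI, so that the lowest sham liver lay among the MI livers. Its fold change was −2.08 ± 0.52, adjusted p = 0.0380. That call was lost in 6 of the 12 fits without 1 liver, namely LC + MI replicates 1 (adjusted p = 0.0712), 2 (0.0665) and 3 (0.144), LC + sham replicates 2 (0.121) and 3 (0.111) and HMRKO + MI replicate 2 (0.0540), and also when the fit held only the LC groups (0.0864). Without LC + sham replicate 1, 4 members were lower, Dnaja1 (−0.87, adjusted p = 0.0333) and Cct4 (−0.63, adjusted p = 0.0382) being added. Without LC + MI replicate 1, Dnaja3 passed as higher (0.60, adjusted p = 0.0372) and Hspa1b alone was lower.

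The other main heat shock genes did not pass in LC mice. Hspa8, the constitutive HSP70, stood at 1570, 1850 and 2480 CPM in LC + sham and at 634, 1520 and 1502 CPM in LC + MI. All 3 MI livers lay below the lowest sham liver, the liver with the high mitochondrial share lowest of all, and the fold change was −0.69 ± 0.29, adjusted p = 0.182. Dnajb1, the J-protein partner of inducible HSP70, had a fold change of −0.79 ± 0.29, adjusted p = 0.139, and Dnaja1, a cytosolic J-protein of HSP70, one of −0.70 ± 0.20, adjusted p = 0.0676. Hspb1, a stress-inducible small heat shock protein, was set by single livers, at 21.1, 20.1 and 91.9 CPM in LC + sham and 92.6, 14.7 and 18.7 CPM in LC + MI. One liver of each group was far above the other two, in LC + MI replicate 1 again. Among 13 heat shock genes followed in every comparison (Hspa1a, Hspa1b, Hspa8, Hsph1, Hsp90aa1, Hsp90ab1, Hspb1, Hspd1, Hspe1, Dnaja1, Dnajb1, Bag3 and Hsf1), LC + sham replicate 3 was the highest LC + sham liver for 10, and replicate 1 the lowest for 11.

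**Figure D1:**
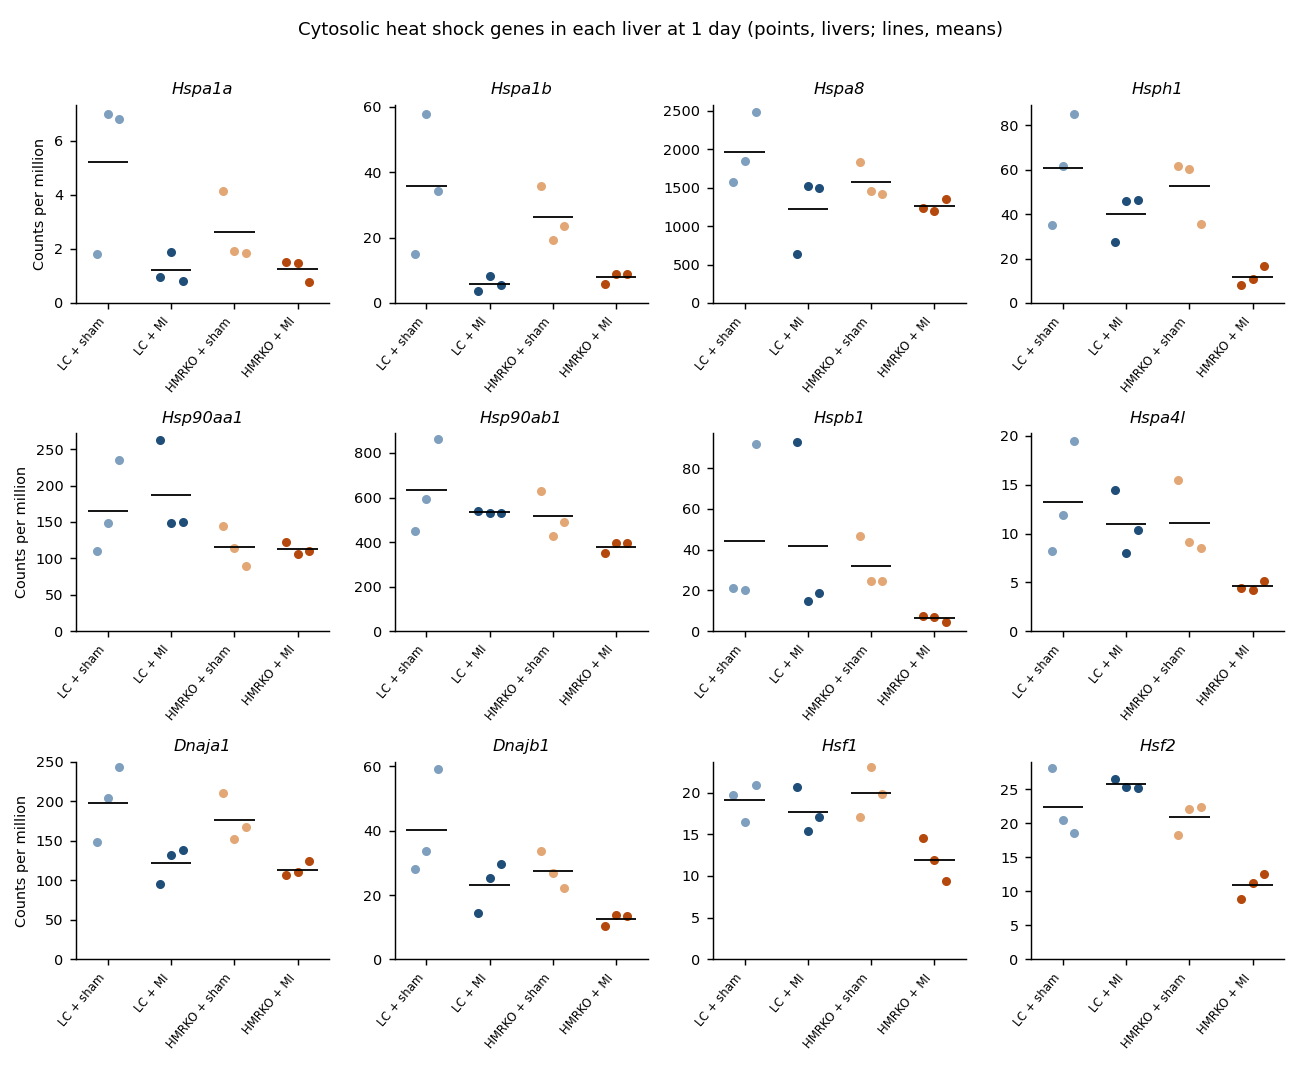
CPM (y axes, linear from 0) of 12 heat shock genes in each of the 12 livers at 1 day, by group. Points are livers and lines are group means, and for Hsph1, Hspb1, Hspa4l, Hsp90ab1, Dnajb1, Hsf1 and Hsf2 the HMRKO + MI livers all lie below every other liver. How many of all genes share this order was not counted.

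In HMRKO mice at 1 day, 6 of the 13 listed heat shock genes and 3 of 4 heat shock factors were lower after MI. Hsf1 is in both counts. Hspa9 and Dnaja3 of the mitochondrion and 3 of 8 Cct genes were higher. Of 77 members, 15 were higher (22% of all genes) and 16 lower (21.7% of all genes) in HMRKO + MI than in HMRKO + sham, so members passed about as often as other genes, and their median was −0.06 against 0.01 for all genes. Past 2-fold were 4 higher (9.06% of all genes) and 7 lower (11.4%). Of these calls, 9 of the higher and 11 of the lower passed without any 1 of the 12 livers. Among the 6 listed genes that were lower, Hspb1 and Dnaja1 each lost the call in some of those fits. Within HMRKO + sham, replicate 1 was the highest liver for 11 of the 13 listed genes and replicate 3 the lowest for 8.
Hsph1, the stress-inducible HSP110 exchange factor, stood at 61.9, 60.6 and 35.8 CPM in HMRKO + sham and at 8.16, 11.03 and 16.5 CPM in HMRKO + MI. The groups were well apart, and the fold change was −2.15 ± 0.35, adjusted p = 5.58e-04, a 4.43-fold lower level. Hspa1b was lower in this genotype as well, at 35.7, 19.4 and 23.7 CPM in HMRKO + sham and 5.87, 8.98 and 8.73 CPM in HMRKO + MI (−1.74 ± 0.42, adjusted p = 0.00536), while its near copy Hspa1a did not pass (−1.08 ± 0.53, adjusted p = 0.116). Dnajb1 fell by 1.13 ± 0.30 on the log2 scale (adjusted p = 0.00929), from 33.7, 26.8 and 22.2 CPM to 10.3, 13.9 and 13.6 CPM. The groups of Hsph1, Hspa1b and Dnajb1 were free of overlap. Hspa4l, an HSP110 relative, stood at 15.5, 9.15 and 8.56 CPM in HMRKO + sham and at 4.42, 4.24 and 5.12 CPM in HMRKO + MI (−1.27 ± 0.33, adjusted p = 0.00746). Hspb1 stood at 46.5, 24.8 and 24.5 CPM in HMRKO + sham and at 7.49, 7.05 and 4.67 CPM in HMRKO + MI, again without overlap. Its fold change of −2.32 ± 0.73 (adjusted p = 0.0209) did not pass without HMRKO + sham replicate 1 (adjusted p = 0.0705), replicates 2 (0.0548) or 3 (0.0710) of HMRKO + MI.

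Of the 4 heat shock factors tested, 3 were lower with these genes. Hsf1, the main stress-activated factor, stood at 17.1, 23.0 and 19.9 CPM in HMRKO + sham and at 14.6, 11.9 and 9.39 CPM in HMRKO + MI (−0.74 ± 0.18, adjusted p = 0.00594). Hsf2, a second factor that can pair with HSF1, stood at 18.3, 22.0 and 22.3 CPM in HMRKO + sham and at 8.89, 11.2 and 12.5 CPM in HMRKO + MI (−0.94 ± 0.17, adjusted p = 0.00111). Hsf4, best known from the lens, was lower as well (−1.08 ± 0.21, adjusted p = 0.00131). Hsf5, at or below 0.692 CPM in every 1-day liver, did not pass. Further lower members were Dnajb2, a J-protein that binds ubiquitin (−0.91 ± 0.15, adjusted p = 5.41e-04), Hspb6, a small heat shock protein of muscle (−0.61 ± 0.14, adjusted p = 0.00367), and Bag1, an exchange factor that links HSP70 to the proteasome (−0.57 ± 0.13, adjusted p = 0.00396). Hsp90ab1, the constitutive HSP90, and Hsp90aa1, the inducible one, did not pass, with fold changes of −0.44 ± 0.22 (adjusted p = 0.115) and −0.05 ± 0.29 (adjusted p = 0.909). Nor did Hspa8 (−0.32 ± 0.29, adjusted p = 0.381).

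Several of the higher members were of the same families as lower ones. In the HSP70 family 3 were higher and 3 lower, among the Bag genes 1 and 1, and among the Dnajc genes 6 and 2. Hspa9, the HSP70 of the mitochondrial matrix that pulls proteins in, stood at 221, 145 and 177 CPM in HMRKO + sham and at 349.9, 385 and 419.7 CPM in HMRKO + MI. The MI livers were all above the sham livers, and the fold change was 1.09 ± 0.25, adjusted p = 0.00372. Dnaja3, its J-protein partner in the matrix, rose with it, from 50.1, 40.2 and 44.0 CPM to 92.6, 99.4 and 105 CPM (1.15 ± 0.19, adjusted p = 6.52e-04). The genes of the matrix chaperonin did not pass, Hspd1 (HSP60) with a fold change of −0.09 ± 0.19, adjusted p = 0.726 and Hspe1 (HSP10) with one of −0.36 ± 0.20, adjusted p = 0.166.
Of 8 Cct genes tested, Cct2 (0.90 ± 0.17, adjusted p = 0.00142), Cct3 (0.79 ± 0.22, adjusted p = 0.0109) and Cct6a (0.41 ± 0.14, adjusted p = 0.0276) were higher and 0 were lower. Cct2 stood at 72.5, 51.6 and 60.1 CPM in HMRKO + sham and at 118, 111 and 115 CPM in HMRKO + MI, without overlap. The call of Cct3 was lost without HMRKO + sham replicate 2 (adjusted p = 0.0520) and that of Cct6a without HMRKO + sham replicate 2 (0.0971) or 3 (0.0899) or HMRKO + MI replicate 3 (0.0929). Dnajc12, a J-protein that works with the aromatic amino acid hydroxylases, had the highest fold change of the members that passed (2.18 ± 0.42, adjusted p = 0.00137), at 6.54, 9.20 and 5.84 CPM in HMRKO + sham and 20.9, 42.6 and 34.0 CPM in HMRKO + MI. Hspa14 and Dnajc2, which form a pair on the ribosome, were both higher (0.90 ± 0.21 and 0.53 ± 0.11), as was Bag5, which has several BAG domains (0.92 ± 0.18).

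**Figure D2:**
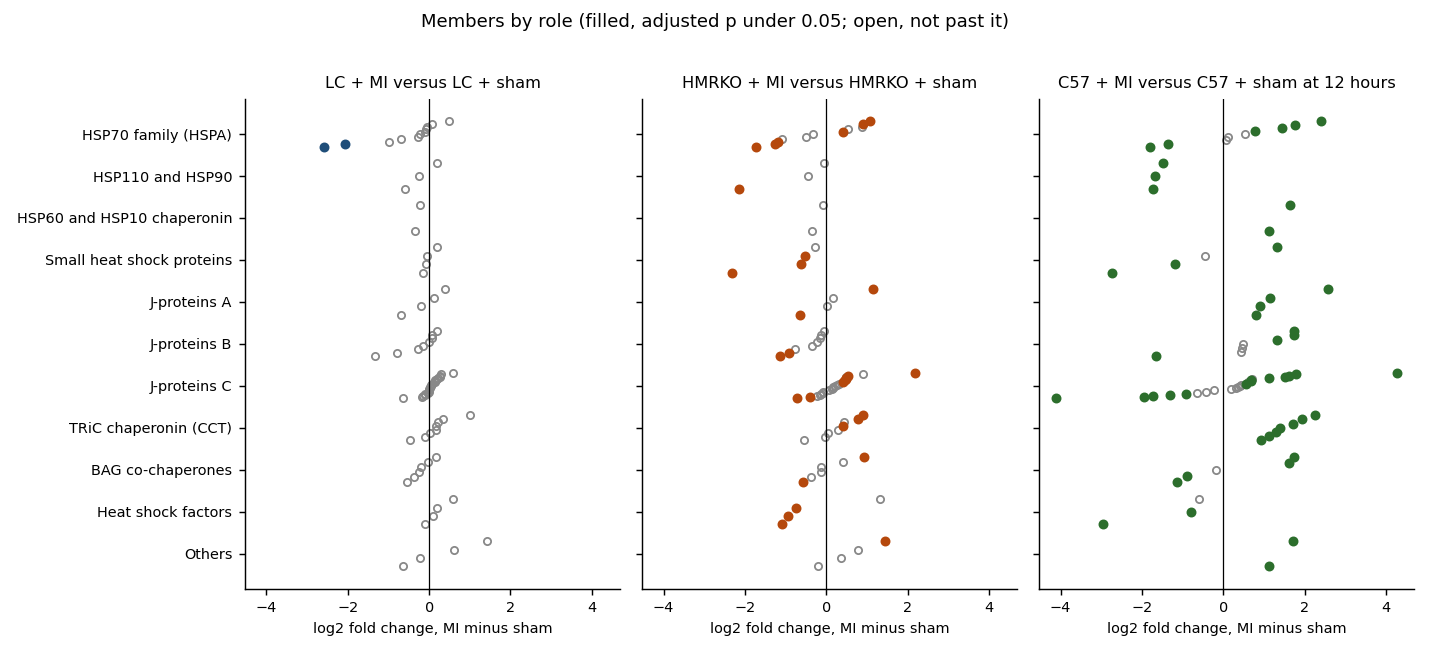
Log2 fold change of MI over sham (x axis) for each member tested, by role (y axis), in LC and HMRKO mice at 1 day and in C57 mice at 12 h. Filled points passed the test (2 lower in LC, 15 higher and 16 lower in HMRKO, 33 higher and 17 lower in C57) and open points did not.

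Between the genotypes after MI, the members passed about as often as other genes. Of 77 members, 10 were higher (14.6% of all genes) and 13 lower (16.2% of all genes) in HMRKO + MI than in LC + MI, and past 2-fold 3 (4.58%) and 4 (7.77%). This comparison shares the HMRKO + MI livers with the one before, so its values stand beside the earlier ones and are not separate support. Hsph1 stood at 27.5, 45.9 and 46.4 CPM in LC + MI, all above the HMRKO + MI livers (−1.75 ± 0.35, adjusted p = 0.00392). Hsf2 stood at 26.6, 25.3 and 25.2 CPM in LC + MI and was 2.36-fold lower in HMRKO + MI (−1.24 ± 0.17, adjusted p = 9.11e-04). Dnajb2 (−0.93 ± 0.15), Hsf4 (−0.85 ± 0.21) and Hspb6 (−0.73 ± 0.14) were lower too, and these 5 passed without any 1 of the 12 livers. The other 8 lower members lost the call in at least 1 such fit, and 7 members were lower without LC + MI replicate 1, 7 without HMRKO + MI replicate 2 and 8 without HMRKO + MI replicate 3. Hspb1 was one of the 8: its fold change of −2.71 ± 0.74 (adjusted p = 0.0161) became −1.38 (adjusted p = 0.115) when replicate 1 of LC + MI, which had the highest level, was left out. Hspa1b did not pass (0.41 ± 0.43, adjusted p = 0.495).
Higher in HMRKO + MI than in LC + MI, in every fit without 1 liver, were Hspa2, an HSP70 best known from testis (1.97 ± 0.42, adjusted p = 0.00511), Hspa9 (1.13 ± 0.25), Hspa14 (0.92 ± 0.21), Cct2 (0.78 ± 0.17) and Bag5 (0.73 ± 0.18). Hspa2 was scarce, at 0.300, 1.13 and 0.969 CPM in LC + MI and 3.75, 3.798 and 2.08 CPM in HMRKO + MI. Without HMRKO + MI replicate 3, 6 members were higher in place of 10.

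The difference between genotypes was also tested directly, as the effect of MI in HMRKO minus its effect in LC. Of 77 members, 4 were higher by this interaction (6.74% of all genes) and 6 lower (8.5% of all genes), and past 2-fold 1 (3.96%) and 3 (6.14%). The lower ones were Hsph1 (−1.55 ± 0.48, adjusted p = 0.0472), Hsf4 (−1.18 ± 0.29, adjusted p = 0.0202), Hsf2 (−1.14 ± 0.24, adjusted p = 0.0133), Dnajb2 (−0.97 ± 0.21, adjusted p = 0.0137), Hspb6 (−0.81 ± 0.19, adjusted p = 0.0191) and Dnajc4, a J-protein gene of little-known function (−0.70 ± 0.22, adjusted p = 0.0466). The higher ones were Hspa9 (1.31 ± 0.35, adjusted p = 0.0273), Bag5 (0.95 ± 0.25, adjusted p = 0.0277), Cct2 (0.89 ± 0.24, adjusted p = 0.0307) and Dnajc2 (0.48 ± 0.15, adjusted p = 0.0497). Hsf2 and Dnajb2 passed without any 1 of the 12 livers, Hsf4 and Hspb6 in all but the fit without LC + sham replicate 2 (adjusted p = 0.0526 and 0.0506), and the other 6 were lost in at least 5 of those fits. The number higher was 0 without LC + sham replicate 2, HMRKO + sham replicate 2 or either of replicates 2 and 3 of HMRKO + MI, 1 without HMRKO + MI replicate 1, and 2 without LC + sham replicate 3, LC + MI replicate 1 or HMRKO + sham replicate 1 or 3. The number lower was 2 without LC + sham replicate 2. The inducible pair did not pass this test, Hspa1b with 0.85 ± 0.58, adjusted p = 0.333 and Hspa1a with 1.00 ± 0.74, adjusted p = 0.367.

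**Figure D3:**
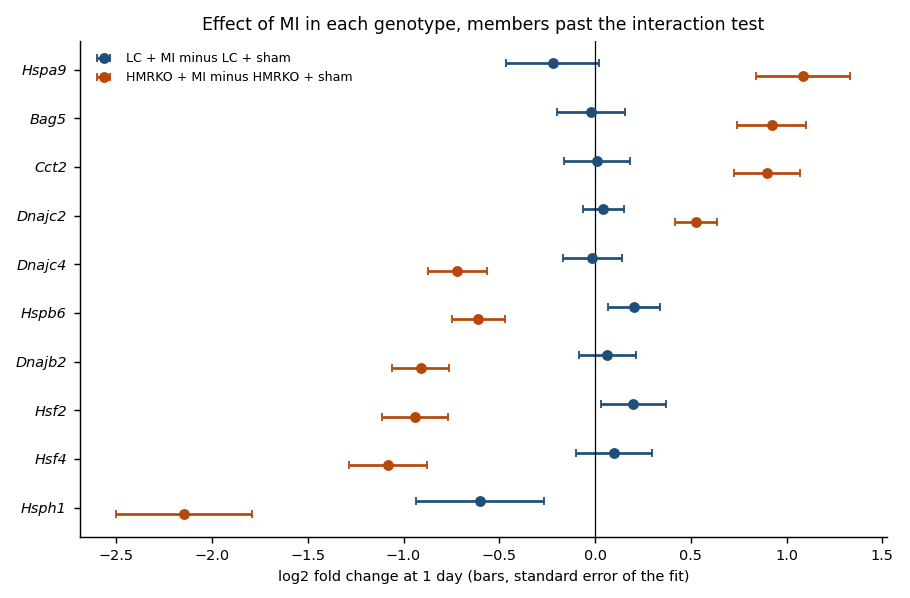
Log2 fold change of MI over sham (x axis) in LC and in HMRKO livers at 1 day for the 10 members past the interaction test, with bars for the SE of the fit. The HMRKO points of Hspa9, Bag5, Cct2 and Dnajc2 lie above 0 and those of the other 6 below it, and 0 of the 10 passed the test in LC mice.

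Without MI, 0 of the 77 members were higher (0.021% of all genes) and 0 lower (0.014% of all genes) in HMRKO + sham than in LC + sham by edgeR, where 0.021% and 0.00701% of all genes were past 2-fold. At an unadjusted p under 0.05 there were 2 members, beside 838 of 14266 genes. Hsf2bp, a testis protein that binds HSF2, was the higher one (1.36) and Dnajc1 the lower one (−0.57). DESeq2 called Dnajc1 lower (−0.55, adjusted p = 0.0290) and no member higher, beside 18 genes lower and 33 higher.

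At 12 h, chaperones of the mitochondrion and TRiC were higher in C57 + MI than in C57 + sham, while both HSP90 genes and Hsph1 were lower. Of 69 members, 33 were higher (34.3% of all genes) and 17 lower (32% of all genes), 26 (25.5%) and 14 (26.7%) of them past 2-fold, with a median log2 fold change of 0.56 on TMM-scaled counts beside 0.11 for all genes. The deposited TPM values (transcripts scaled by length and library size) were tested by limma on log2(TPM + 1). Of the 69 members, 17 were higher and 22 lower, beside 2268 and 5419 of 12548 genes. The median was −0.02 for members and −0.37 for all genes. The members were thus 0.45 above the median gene on counts and 0.35 above it on TPM. On TPM, 17 of the 33 higher members and all 17 lower members passed in the same direction and 5 more passed as lower.
The libraries also differed in make-up. The 11 hepatocyte markers summed to 37800 to 44400 CPM in C57 + sham and 105000 to 145000 CPM in C57 + MI. Of these 11, 9 were higher and 0 lower (34.3% and 32% of all genes). Of 10 stellate cell and smooth muscle markers 7 were lower (32% of all genes) and 0 higher. They summed to 412 to 534 CPM in C57 + sham and 234 to 269 CPM in C57 + MI, and 0 markers of either list were at 0. The 10 neutrophil markers summed to 136 to 183 CPM in C57 + sham and 45.8 to 91.7 CPM in C57 + MI, although 5 of 8 tested were higher and 2 lower. Both lymphocyte markers tested were lower, and of 5 cholangiocyte markers 2 were higher and 3 lower. Of 10 Kupffer cell markers 0 were higher and 1 lower. The part of these cell types in the chaperone differences was not tested.

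On counts, all 7 Cct genes tested were higher in C57 + MI (34.3% of all genes), also in every fit without 1 of the 6 livers. Their groups did not overlap, which held for 53 of the 69 members, and the share over all genes was not counted. Cct3 stood at 24.2, 16.2 and 17.4 CPM in C57 + sham and 67.2, 111 and 92.3 CPM in C57 + MI (2.25 ± 0.25, adjusted p = 3.28e-05). Cct2 stood at 35.9, 31.6 and 28.1 CPM in C57 + sham and 92.1, 144 and 128 CPM in C57 + MI (1.93 ± 0.23, adjusted p = 4.37e-05). The smallest of the 7 differences was that of Cct8 (0.93 ± 0.18). On TPM, Cct3 (1.54), Cct2 (1.25) and Cct6a (1.06) passed, and Cct4, Cct5, Cct7 and Cct8 did not, with values of 0.61, 0.67, 0.48 and 0.30.
The mitochondrial chaperones were higher as well. Hspa9 stood at 67.2, 62.5 and 64.6 CPM in C57 + sham and at 248, 405 and 377 CPM in C57 + MI (2.41 ± 0.25, adjusted p = 1.81e-05). Dnaja3 stood at 14.1, 21.4 and 19.5 CPM in C57 + sham and at 84.5, 118 and 127 CPM in C57 + MI (2.57 ± 0.24, adjusted p = 1.18e-05). This pair was also higher in HMRKO + MI than in HMRKO + sham at 1 day, and both passed on TPM (1.72 and 1.87). Hspe1 rose from 15.9, 24.5 and 20.9 CPM to 68.6, 54.0 and 68.8 CPM (1.63 ± 0.22, adjusted p = 9.46e-05) and passed on TPM (1.02). Hspd1 stood at 75.4, 70.0 and 68.1 CPM in C57 + sham and 94.6, 178 and 189 CPM in C57 + MI (1.11 ± 0.27, adjusted p = 0.00384) and did not pass on TPM (0.42, adjusted p = 0.199). The window shown above for Hspe1 shares bases with that of Hspd1.

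**Figure D4:**
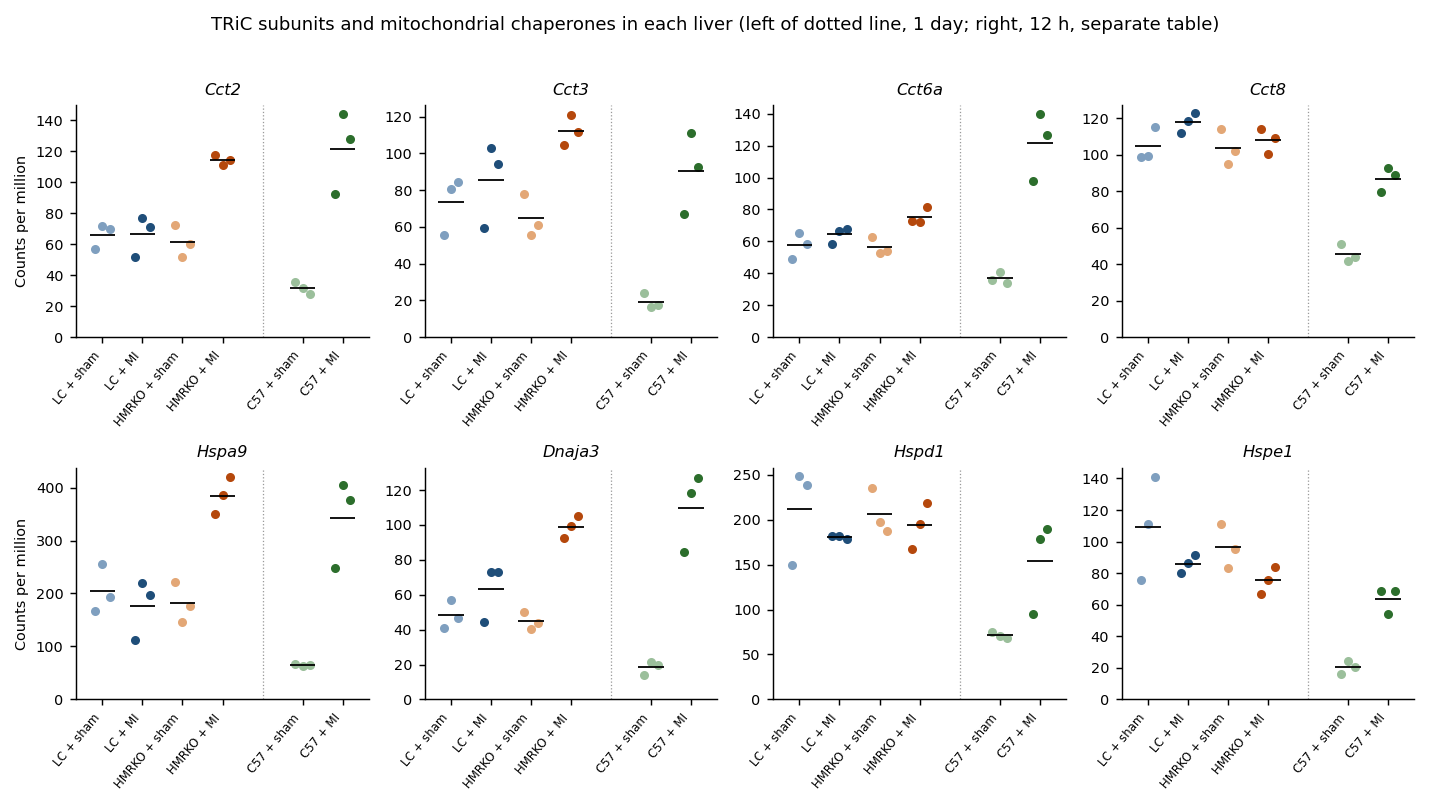
CPM (y axes, linear from 0) of 4 TRiC subunits and 4 mitochondrial chaperones in each of the 18 livers, with the 1-day groups left of the dotted line and the separately processed 12-hour groups right of it. Points are livers and lines are means, and Cct2, Hspa9 and Dnaja3 are highest in HMRKO + MI at 1 day and in C57 + MI at 12 h.

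Both HSP90 genes and Hsph1 went the other way. Hsp90ab1 stood at 1688, 1262 and 1180 CPM in C57 + sham and at 507, 494 and 485 CPM in C57 + MI. Every sham liver lay far above every MI liver, and the fold change was −1.47 ± 0.24, adjusted p = 3.48e-04. Hsp90aa1 stood at 912, 595 and 508 CPM in C57 + sham and at 254, 191 and 183 CPM in C57 + MI (−1.68 ± 0.28, adjusted p = 3.78e-04), and Hsph1 at 49.5, 42.3 and 18.4 and then 10.7, 9.94 and 12.3 CPM (−1.72 ± 0.32, adjusted p = 8.37e-04). These 3 kept the call without any 1 of the 6 livers and on TPM (−2.07, −2.26 and −1.73). Hspa4l was lower too (−1.36 ± 0.31, adjusted p = 0.00258), whereas Hspa4, another HSP110 relative, was higher on counts (0.78 ± 0.18, adjusted p = 0.00363) and did not pass on TPM (0.15, adjusted p = 0.514). At 1 day neither HSP90 gene passed in any comparison.
The inducible pair did not pass at 12 h, Hspa1b at 4.12, 5.54 and 1.74 CPM in C57 + sham and 4.28, 5.11 and 6.88 CPM in C57 + MI (0.54 ± 0.42, adjusted p = 0.278), and Hspa1a at no more than 1.77 CPM in any of these livers (0.12 ± 0.67, adjusted p = 0.884). Hspa8 had a fold change of 0.06 ± 0.26 (adjusted p = 0.854). Per length of transcript it had the highest mean level of the members in both groups, with 1065, 1143 and 1025 TPM in C57 + sham and 872, 519 and 798 TPM in C57 + MI. Hsp90ab1 came next by mean in C57 + sham, at 1126, 878 and 812 TPM, and stood at 225, 213 and 221 TPM in C57 + MI. There it lay beside Hspb8, a small heat shock protein that acts with BAG3, at 225, 163 and 227 TPM. The order of Hsp90ab1 and Hspb8 in C57 + MI, and of Hspa8 and Hsp90ab1 in C57 + sham, is not separated by their spread, since the values overlapped.

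Among the co-chaperones the directions were mixed at 12 h. Bag3, a stress-inducible exchange factor of selective autophagy, stood at 24.8, 12.7 and 16.0 CPM in C57 + sham and at 47.6, 60.7 and 51.8 CPM in C57 + MI (1.61 ± 0.25, adjusted p = 2.59e-04). Its partner Hspb8 was higher with it (1.33 ± 0.22, adjusted p = 4.42e-04), and the pair had differences of 0.95 (adjusted p = 0.00796) and 0.70 (adjusted p = 0.0176) on TPM. Bag5 was higher (1.73 ± 0.28) while Bag6 (−1.13 ± 0.21) and Bag4 (−0.88 ± 0.23) were lower. All 4 type A J-proteins were higher on counts, led by Dnaja3, but Dnaja1 (0.80 ± 0.22, adjusted p = 0.00749) lost the call without C57 + MI replicate 3 (adjusted p = 0.0646) and had a difference of 0.17 on TPM (adjusted p = 0.521). Dnajc12 had the highest fold change of all members at 12 h, at 0.589, 1.58 and 2.08 CPM in C57 + sham and 20.1, 36.2 and 33.6 CPM in C57 + MI (4.28 ± 0.41, adjusted p = 1.20e-05).
Among the lower members, Hsf4 stood at 138, 102 and 83.4 CPM in C57 + sham and at 18.8, 13.7 and 9.06 CPM in C57 + MI (−2.96 ± 0.30, adjusted p = 1.62e-05). Dnajc27, a small GTPase with a J-domain, stood at 61.3, 66.0 and 51.4 CPM in C57 + sham and at 4.49, 2.90 and 2.93 CPM in C57 + MI (−4.11 ± 0.25, adjusted p = 3.35e-06). Hspb11, a subunit of the transport complex of cilia in spite of its symbol, stood at 57.7, 66.0 and 85.8 CPM and then at 15.6, 8.14 and 7.76 CPM (−2.74 ± 0.30, adjusted p = 2.58e-05). In the 12 livers at 1 day, whose table was processed separately, these 3 genes did not exceed 22.6, 1.40 and 4.17 CPM, so every C57 + sham liver lay above all of them. The C57 + MI livers also lay above the 1-day range for Dnajc27 and Hspb11. Hsf1 was lower (−0.79 ± 0.23, adjusted p = 0.0109), a call lost without C57 + sham replicate 2 (adjusted p = 0.0514). Hspb1 was lower (−1.18 ± 0.37, adjusted p = 0.0150) with groups that overlapped, and not without C57 + sham replicate 1 (adjusted p = 0.0860) or 3 (0.0698).

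**Figure D5:**
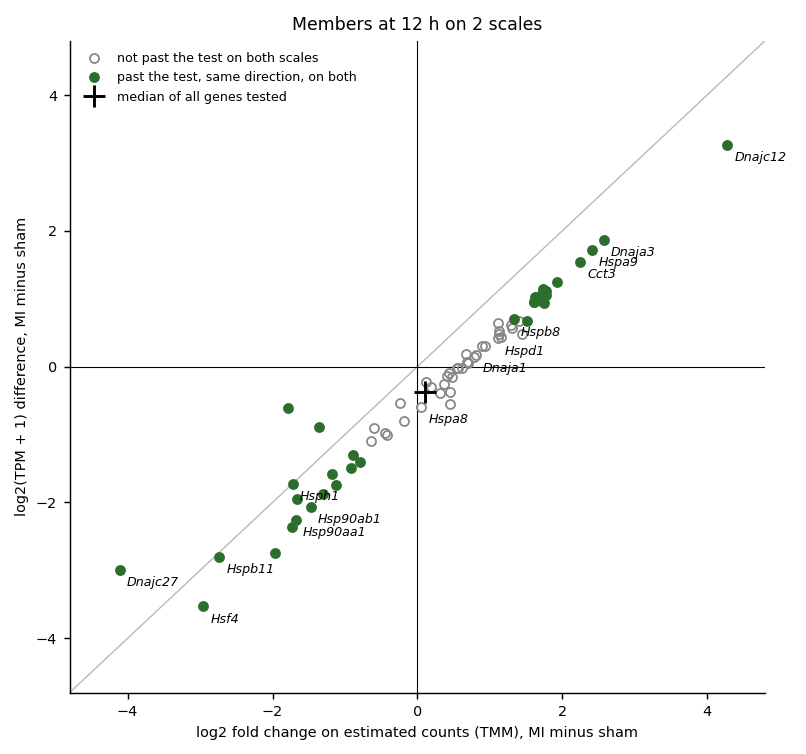
Log2 fold change of C57 + MI over C57 + sham for the 69 members on TMM-scaled counts (x axis) and as a difference of log2(TPM + 1) (y axis), with a cross at the medians of all genes (0.11 and −0.37) and a grey line of equality. The 34 filled points passed in the same direction on both scales, and 66 of the 69 points lie below the line.

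The times were then set side by side for members tested at both, in comparisons that share no liver. Of the 15 members higher in HMRKO + MI than in HMRKO + sham, 12 were higher in C57 + MI (80.0% of these 15 and 36.4% of the 33 at 12 h), among them Hspa9, Dnaja3, Cct2, Cct3, Cct6a, Dnajc12, Bag5 and Hspa14. For all genes the shares were 67.3% and 44.3%. Of the 15 lower members tested at both times, 7 were lower at 12 h (46.7%, and 41.2% of the 17), among them Hsph1, Hspa4l, Hspb1, Hsf1 and Hsf4, beside 50.5% and 39.3% of all genes. Across the 69 members the log2 fold changes of these comparisons had a Pearson r of 0.48, against 0.54 across 11538 genes. For LC + MI against LC + sham the r was 0.15 (0.24 across all genes), 49.3% of the 69 members had the same sign at 12 h (54.5% of all genes), and 0 of the 2 members that passed in LC passed at 12 h. Genes are not independent replicates, so these are descriptions. Dnajc2 and Dnajc21, both of which serve ribosomes, were higher in HMRKO + MI than in HMRKO + sham and lower at 12 h. Dnaja1 was lower in that 1-day comparison and higher at 12 h on counts, but neither call was stable. The 1-day call was lost without HMRKO + MI replicate 1 (adjusted p = 0.0687) or 2 (0.0673) or HMRKO + sham replicate 1 (0.0953). The 12-hour call was lost without C57 + MI replicate 3 (0.0646) and on TPM (0.521).

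Partners of the chaperones were followed in lists. Of 25 co-chaperones of HSP90 and HSP70, Hspbp1 being the one that is also a member, 12 were lower and 4 higher in HMRKO + MI than in HMRKO + sham (21.7% and 22% of all genes), with a median of −0.23 beside 0.01 for all genes. Against LC + MI, 10 were lower and 1 higher (16.2% and 14.6% of all genes). In LC mice 0 were lower and 1 higher after MI (2.33% and 2.68% of all genes), and at 12 h 11 of 24 were higher and 5 lower (34.3% and 32% of all genes).
Fkbp4, which carries steroid receptors on HSP90, stood at 189, 155 and 175 CPM in HMRKO + sham and at 21.5, 38.3 and 39.9 CPM in HMRKO + MI, and between 147 and 227 CPM in the LC livers. The HMRKO + MI livers were the low ones, with fold changes of −2.38 ± 0.24 against HMRKO + sham (adjusted p = 2.81e-05) and −2.29 ± 0.32 for the interaction (adjusted p = 0.00405), and it was lower at 12 h too (−1.37 ± 0.23, adjusted p = 3.87e-04). Stip1, which bridges HSP70 and HSP90, fell in HMRKO + MI by 0.84 ± 0.18 on the log2 scale (adjusted p = 0.00269). Fkbp5, a glucocorticoid-induced partner of HSP90, was higher after MI in LC (1.50 ± 0.37, adjusted p = 0.0369), in HMRKO (2.56 ± 0.38, adjusted p = 3.12e-04) and in C57 mice (3.21 ± 0.27, adjusted p = 6.78e-06). The call in LC was lost in 6 of 12 fits without 1 liver, those without LC + sham replicate 1, 2 or 3, LC + MI replicate 2 or 3 or HMRKO + MI replicate 2, with adjusted p of 0.0523 to 0.119.
Prefoldin, which hands actin and tubulin to TRiC, had 4 of 7 genes lower and 2 higher in HMRKO + MI than in HMRKO + sham (21.7% and 22% of all genes), and 2 lower and 2 higher at 12 h (32% and 34.3%). Of 24 genes listed as an HSF1 target core, most of them members themselves, 10 were lower and 1 higher in HMRKO + MI than in HMRKO + sham (21.7% and 22% of all genes), with a median of −0.58. In LC mice 2 were lower and 0 higher after MI (2.33% and 2.68% of all genes, median −0.26), and at 12 h 10 were higher and 7 lower (34.3% and 32% of all genes, median 0.46).

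The 7 ER chaperones left out by the rule were followed beside the members. All 7 were higher in HMRKO + MI than in HMRKO + sham (22% of all genes, median 1.62). All 7 were also higher in C57 + MI (34.3% of all genes, median 3.51). Some members, such as Hspa9, Dnaja3 and Cct2, were higher in both comparisons as well. In LC + MI 1 of the 7, Dnajc10, was higher (2.68% of all genes), with a fold change of 0.82 ± 0.17, adjusted p = 0.0193. That call was lost without LC + sham replicate 2 (0.0599) or 3 (0.0621) or LC + MI replicate 2 (0.0792) or 3 (0.0813). Hspa5 (BiP), the ER HSP70, stood at 423, 306 and 324 CPM in HMRKO + sham and at 2387, 1617 and 1697 CPM in HMRKO + MI (2.44 ± 0.36, adjusted p = 3.05e-04), in the same livers in which Hspa1b was lower. Cirbp and Rbm3, RNA-binding protein genes induced by cold, were higher in HMRKO + MI than in HMRKO + sham (1.57 ± 0.14, adjusted p = 1.52e-05, and 2.99 ± 0.40, adjusted p = 1.54e-04) and in C57 + MI (1.74 ± 0.31 and 3.50 ± 0.30). Cirbp stood at 37.8, 36.4 and 34.5 CPM in HMRKO + MI and between 10.5 and 15.1 CPM in the other 1-day livers. No body temperature is given in the sources used here.
Markers of other cell types and programmes were followed in the same comparisons. In HMRKO + MI against HMRKO + sham, 22% of all genes were higher and 21.7% lower. Of 6 neutrophil markers tested 5 were higher, and the 10 listed summed to 9.13 to 14.1 CPM in HMRKO + sham and 30.4 to 33.7 CPM in HMRKO + MI. Of 5 lymphocyte markers 3 were lower, and of 10 Kupffer cell markers 1 was higher and 3 lower. The hepatocyte markers summed to 64100 to 77600 CPM and then 102000 to 106000 CPM. Of the 11, 3 were higher (27.3%) and 1 lower (9.09%). Of 13 core clock genes, LC mice had 2 higher and 5 lower after MI (2.68% and 2.33% of all genes). In HMRKO + MI against HMRKO + sham 3 were higher and 6 lower, and at 12 h 8 were higher and 4 lower (34.3% and 32% of all genes). The hour at which livers were taken is not given in the sources used here. The part of these markers and clock genes in the chaperone values was not tested.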

How the data were processed

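Livers were sequenced as TruSeq RNA libraries. For the 1-day livers the deposited table of the authors holds raw counts of reads for each gene, and that of the 12-hour livers estimated counts together with TPM and FPKM values, per the file headers. The authors' mean columns and the FPKM values entered no test. Genome build mm9 and the tools TopHat2, HISAT2 2.1.0, Bowtie2 2.2.3 and DESeq2 appear in the submitters' processing notes without a role, and which program counted the reads, and whether by strand, is not given in the sources used here. The labels describe flash-frozen livers.

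The 12-hour estimated counts were rounded to whole numbers (28.2% were not whole). Each table was filtered with filterByExpr (minimum count 10, total 15), scaled by TMM and fitted with edgeR 4.0.16 in R 4.3.3 (quasi-likelihood F-test, Benjamini-Hochberg adjustment over all genes tested). The 1-day fit held all 4 groups, which share 1 estimate of the spread, and the interaction was a contrast of the same fit. The 12-hour TPM were tested with limma 3.58.1 on log2(TPM + 1), which understates changes of low genes. In a test on simulated counts, the 1-day LC comparison was fitted with only the LC groups (13805 genes) and not with all 4 groups (14266 genes). It recovered 44.7% of genes changed by 1 on the log2 scale and 98% of those changed by 2. The 12-hour comparison (12548 genes) recovered 21.3% and 91.3%. The simulation changed few genes and gave all genes 1 common spread. In the real 12-hour fit 4299 genes were higher and 4013 lower, so the simulated shares do not give the share missed there.

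Members that passed were named by smallest p, up to 12 per direction, with the 13 listed heat shock genes whatever their result, up to 5 passing genes of each partner list, and the ER chaperones, Cirbp, Rbm3 and Nr3c2. Further members were named after their values were seen. Members and lists were chosen with earlier results of these data known. Alternatives were other size factors, DESeq2 1.42.0, other filters, a 2-fold limit, only the groups compared, a replicate block, each liver left out and, chosen after seeing the data, thinning of the 12-hour MI libraries to the sham depth. Nothing in the labels says more of the replicates than that they are separate samples. They were read here as livers of separate mice, which the labels do not state. The p-values measure the spread between these samples, which may be technical if that reading is wrong.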

Additional observations from a re-analysis of the deposited data

Results flagged for a closer look

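The effect of MI differed between genotypes at 1 day, by the interaction test of edgeR (HMRKO minus LC), for 10 of the 77 members. The log2 difference was −1.14 ± 0.24 for Hsf2 (adjusted p = 0.0133), −0.97 ± 0.21 for Dnajb2 (0.0137), −0.81 ± 0.19 for Hspb6 (0.0191), −1.18 ± 0.29 for Hsf4 (0.0202), −0.70 ± 0.22 for Dnajc4 (0.0466) and −1.55 ± 0.48 for Hsph1 (0.0472). It was 1.31 ± 0.35 for Hspa9 (adjusted p = 0.0273), 0.95 ± 0.25 for Bag5 (0.0277), 0.89 ± 0.24 for Cct2 (0.0307) and 0.48 ± 0.15 for Dnajc2 (0.0497). Across all genes 6.74% were higher and 8.5% lower by the same test, beside 5.19% and 7.79% of the members. Members thus passed no more often than other genes. Hsf2 and Dnajb2 passed in all 12 fits that left out 1 liver, and Hsf4 and Hspb6 in 11. Hspa9 passed in 7 of the 12, Bag5 in 5, Cct2 and Hsph1 in 4, Dnajc4 in 3 and Dnajc2 in 0. Groups of 3 livers were not searched for single outlying livers.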

How the results depend on the processing

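In LC mice 4 members were lower without the filter on low counts and 1 when only the groups compared were fitted, against 2. With a 2-fold limit, 3 members were higher and 4 lower in HMRKO + MI against LC + MI, 4 and 7 in HMRKO + MI against HMRKO + sham, and 1 and 3 for the interaction. DESeq2 called 1 member lower in HMRKO + sham against LC + sham, and on TPM 17 members were higher at 12 h in place of 33. On that scale Dnajc22 turned from 0.56 to −0.0265 (adjusted p = 0.927). At 12 h, 66.0% of the member calls were higher on counts and 43.6% on TPM, and 51.7% and 29.5% of all calls. With the 12-hour MI libraries thinned to the sham depth, 28 of 60 members were higher and 17 lower, beside 3123 and 3325 of 9996 genes.

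When 1 liver was left out, the number of members higher and lower ranged over 0 to 1 and 1 to 4 in LC mice, 6 to 13 and 7 to 14 for HMRKO + MI against LC + MI, and 10 to 17 and 12 to 17 for HMRKO + MI against HMRKO + sham. It was 0 in each direction for HMRKO + sham against LC + sham, 0 to 4 and 2 to 8 for the interaction, and 26 to 34 and 15 to 17 at 12 h.

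The labels give groups the same replicate numbers. Deviations from the group means of same-numbered livers had correlations of −0.171 to 0.182. Livers of different numbers were not set beside them, so these values cannot settle whether the numbers pair the livers. With the replicate block, 0 members were higher and 2 lower in LC mice, 10 and 12 for HMRKO + MI against LC + MI, 15 and 14 for HMRKO + MI against HMRKO + sham, 0 and 0 for the genotypes without MI, 3 and 5 for the interaction, and 33 and 17 at 12 h. With few counts in C57 + sham, small changes of scarce members were not detectable at 12 h.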
